A study of Mus musculus with 38 samples.

Results

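The solute carriers of mouse embryonic fibroblasts were followed here as a group of 151 genes. A gene was taken if its symbol had the form Slc, family number, a, member number, and if its mean raw count over the 20 libraries of the TNF experiment was at least 50. Of 45706 gene identifiers, 334 had such a symbol. Of these, 151 passed the count minimum, 183 did not, and 22 of those had no count at all. The choice used a mean over both genotypes and all times and no comparison. The members nearest the minimum were Slc5a6, Slc2a9 and Slc2a13 inside it, with mean counts of 51.55, 52.8 and 54.4, and Slc25a14, Slc25a26 and Slc26a6 outside it, with 49.2, 49.1 and 48.95. Only the families whose symbols carry the letter a are covered, so nucleotide-sugar carriers named Slc35b to Slc35f, for instance, are not.

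Messenger RNA had been sequenced from primary embryonic fibroblasts of C57BL/6 mice that were either homozygous for a knock-in allele of the NF-kB subunit RelA, called RelA-TA-KI, or wild-type (WT). TA is read as transactivation from the series title, and the altered protein was not examined in these data. After a night in medium with 0.5% serum the cells were left untreated or were given TNF at 10 ng/ml, lipopolysaccharide (LPS) at 100 ng/ml or the double-stranded RNA mimic Poly(I:C) at 20 ug/ml, and were collected after 0.5, 1, 3 or 8 h. TNF was studied with 2 libraries per genotype and time (20 libraries), and LPS and Poly(I:C) with 1 library per genotype and condition and with untreated cells of their own (18 libraries). The labels do not say whether replicates came from separate cultures or embryos, so p-values measure only the spread between these samples.

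Solute carriers are membrane proteins that move nutrients, ions, metals, metabolites and vitamins by facilitated diffusion, by exchange, or by coupling to a sodium or proton gradient. Families are grouped by sequence and each tends to have its own substrates: Slc2 proteins carry sugars, Slc7 proteins carry amino acids (several of them as light chains bound to the heavy chain Slc3a2), Slc16 proteins carry monocarboxylates and hormones, Slc39 and Slc30 proteins carry zinc and related metals into and out of the cytosol, and Slc25 proteins line the inner mitochondrial membrane. In inflamed tissue, cystine and arginine importers, the iron exporter ferroportin and the glucose carriers are among the best-known regulated members.

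Gene coordinates are those of mm10 in the deposited tables, from the first to the last exon base. Promoter windows of 5 members whose mRNA is central to the results are given first, so that their letters can be read beside the values. Each runs from 250 bases before to 50 after a start that RefSeq annotates on GRCm38.p6, 5′ to 3′ on the strand of the gene. Slc2a6 had the largest rise of the members at 8 h in WT with TNF and in the change shared by both genotypes with LPS and with Poly(I:C), and its window lies at chr2:27027949-27028248 on the minus strand. Slc25a25 was the only member called at 0.5 h of TNF in the main fit. The window shown for it, at 1 of its several annotated starts, is chr2:32424017-32424316 on the minus strand. Slc25a22 answered LPS and Poly(I:C) far more than TNF, and 1 of its windows lies at chr7:141435326-141435625 on the minus strand. Slc7a11 rose with every agent at 8 h, with its window at chr3:50443564-50443863 on the minus strand. Slc24a3 was lower in RelA-TA-KI cells in both experiments, and 1 of its windows lies at chr2:145242361-145242660 on the plus strand. Capitals mark the cAMP response core TGACGTCA in Slc25a25, the interferon-stimulated response core (GAAA, any 2 bases, GAAA) in Slc25a22, the C/EBP-ATF composite core TGATGNAA on either strand in Slc7a11, and the NF-kB consensus (kB) in Slc24a3, while no searched motif was found in the Slc2a6 window.
Slc2a6: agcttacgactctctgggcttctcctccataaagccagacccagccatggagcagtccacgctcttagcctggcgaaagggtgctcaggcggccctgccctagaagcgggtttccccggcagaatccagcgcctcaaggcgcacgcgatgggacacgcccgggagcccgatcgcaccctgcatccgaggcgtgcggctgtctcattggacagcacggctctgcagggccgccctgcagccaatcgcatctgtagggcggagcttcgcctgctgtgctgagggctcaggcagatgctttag
Slc25a25: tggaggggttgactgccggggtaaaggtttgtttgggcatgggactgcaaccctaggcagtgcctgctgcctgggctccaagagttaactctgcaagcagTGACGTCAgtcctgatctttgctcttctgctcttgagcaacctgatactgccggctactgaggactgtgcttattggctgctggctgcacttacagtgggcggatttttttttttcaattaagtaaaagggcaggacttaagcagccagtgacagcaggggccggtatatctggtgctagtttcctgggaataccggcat
Slc25a22: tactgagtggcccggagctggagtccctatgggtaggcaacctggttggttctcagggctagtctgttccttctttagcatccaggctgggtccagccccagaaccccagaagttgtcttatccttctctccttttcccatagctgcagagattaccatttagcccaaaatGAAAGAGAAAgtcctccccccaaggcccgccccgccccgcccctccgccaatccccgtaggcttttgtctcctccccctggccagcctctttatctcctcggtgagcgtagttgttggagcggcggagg
Slc7a11: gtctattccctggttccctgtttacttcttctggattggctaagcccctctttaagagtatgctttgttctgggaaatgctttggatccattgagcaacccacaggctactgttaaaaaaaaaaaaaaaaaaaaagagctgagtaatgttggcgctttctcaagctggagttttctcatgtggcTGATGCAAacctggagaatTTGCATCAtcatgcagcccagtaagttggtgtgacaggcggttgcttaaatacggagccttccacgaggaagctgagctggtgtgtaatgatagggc
Slc24a3: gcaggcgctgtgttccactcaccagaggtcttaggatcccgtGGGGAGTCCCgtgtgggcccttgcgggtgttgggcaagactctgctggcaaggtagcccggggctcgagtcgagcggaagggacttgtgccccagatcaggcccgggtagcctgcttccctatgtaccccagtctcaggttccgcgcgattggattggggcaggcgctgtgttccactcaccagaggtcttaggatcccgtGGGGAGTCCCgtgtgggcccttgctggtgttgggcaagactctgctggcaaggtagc

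Measured from the start, the Slc25a25 match stood at -150, the Slc25a22 match at -79, the Slc7a11 matches at -66 and -47, and the Slc24a3 matches at -208 and -7. Of the 151 members, 116 had at least 1 window, 159 windows in all, and both strands were searched in these and in all 32851 windows. The kB consensus was in 10.1% of the members' windows and 8.46% of all windows, and the cAMP response core in 1.89% and 1.79%. The composite core was in 3.77% of the members' windows and 3.97% of all, the interferon-stimulated response core in 1.26% and 3.44%, and the antioxidant response core TGACNNNGC in 18.9% and 12.4%. Another Slc25a25 window, not shown, held the antioxidant response core at -100 and -31. Both strands of the palindromic TGACGTCA match at the same place. The kB matches of Slc24a3 also fit on both strands at the same places, which the kB pattern does not require. A window with a match on either strand was counted once, and a match is a description of these letters only.

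Libraries held 6715022 to 9590932 counts in the TNF experiment and 7021799 to 9431334 in the other. The members took 0.9397 to 1.118% and 0.8509 to 1.218% of them, and all 151 had a count in every library and passed the low-count filter in both experiments. Fibroblast markers (12 of 12 with a count) summed to 28535 to 37275 CPM (counts scaled to a common library size by TMM) in RelA-TA-KI and 23183 to 33552 CPM in WT libraries of the TNF experiment. Macrophage markers (20 of 20 with a count) were also present, at 1532 to 5409 CPM in RelA-TA-KI and 1334 to 2716 CPM in WT, and at 4503 to 8263 and 5447 to 7475 CPM in the LPS and Poly(I:C) experiment. Rela, whose allele differs between the genotypes, was read in every library, so its level does not check the labels. Xist, read from the inactive X chromosome of females, had 2.32 to 3.90 CPM in WT replicate 2 of the TNF experiment but 337 to 426 CPM in WT replicate 1 and 346 to 517 CPM in RelA-TA-KI. In the other experiment Xist had 0.464 to 1.49 CPM in RelA-TA-KI and 251 to 438 CPM in WT. Ddx3y, a gene of the Y chromosome, had 55.9 to 98.5 CPM in WT and 127 to 183 CPM in RelA-TA-KI there, so these WT libraries held both transcripts. In the TNF experiment it had 128 to 160 CPM in WT replicate 2 and at most 0.676 CPM in the other libraries. Xist thus differed between the WT replicates and, in the second experiment, between the genotypes, and the part of sex in the results was not tested.

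A mitochondrial carrier had the highest level. Slc25a4, the adenine nucleotide translocator ANT1, had 186 CPM per kilobase of exon as its mean over the 20 TNF libraries. It was followed by Slc38a2 (SNAT2, a sodium-coupled importer of small neutral amino acids) at 79.0, Slc25a3 (the mitochondrial phosphate carrier) at 72.6, Slc7a5 (LAT1, large neutral amino acids) at 71.8 and its heavy chain Slc3a2 at 71.6 CPM per kilobase. These 5 genes made up 20.5% of the members' summed level, whereas the median member stood at 8.18 CPM per kilobase. The lowest were Slc2a13 at 0.787, Slc22a15 at 0.834, Slc25a42 at 1.19, Slc38a9 at 1.25 and Slc2a9 at 1.26 CPM per kilobase. By substrate, 30 mitochondrial carriers summed to 695 CPM per kilobase, 26 carriers of amino acids and peptides to 484, 25 of metals and heme to 402, and 20 of ions, protons and phosphate to 222. The 12 sugar carriers summed to 113 and the 10 of monocarboxylates and fatty acids to 102 CPM per kilobase.

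In the main fit, which has no term for replicate number, 1 member was called in each genotype at 0.5 h of TNF. Many were called by 8 h, more of them rising than falling. Differences were called at an adjusted p under 0.05 in edgeR's quasi-likelihood F test, with Benjamini-Hochberg adjustment over all genes tested (13843 for TNF, 12752 for LPS and Poly(I:C)). In RelA-TA-KI cells 1, 5, 26 and 74 members were called at 0.5, 1, 3 and 8 h, which is 0.662, 3.31, 17.2 and 49.0% of the members against 1.07, 3.28, 19 and 42.1% of all genes. In WT cells 1, 3, 28 and 45 were called, which is 0.662, 1.99, 18.5 and 29.8% against 1.04, 3.81, 15.7 and 20.8% of all genes. At 8 h 43 members rose and 31 fell in RelA-TA-KI cells, and 34 rose and 11 fell in WT cells, with median log2 changes over the members of 0.13 and 0.08 against -0.02 and -0.01 over all genes. By direction, all genes called higher and lower at 8 h made up 21.6 and 20.5% in RelA-TA-KI and 12 and 8.8% in WT. At 3 h 18 members rose and 8 fell in RelA-TA-KI (10.9 and 8.08% of all genes) and 17 rose and 11 fell in WT (9.32 and 6.36%). At 0.5 and 1 h every member called rose, whereas 0.831 and 2% of all genes rose and 0.238 and 1.28% fell in RelA-TA-KI, and 0.91 and 2.57% rose and 0.13 and 1.24% fell in WT. Up to 3 h the members' share was thus close to that of all genes, and at 8 h it was above it in both genotypes. Among all genes with a mean count of at least 50, 46.9% were called in RelA-TA-KI and 23.7% in WT at 8 h. Of the members that rose at 8 h, 22 did so in both genotypes (51.2% of those of RelA-TA-KI and 64.7% of those of WT), and of those that fell, 9 did (29.0% and 81.8%). Over all genes tested, 1211 rose in both (40.5% of those of RelA-TA-KI and 72.8% of those of WT) and 917 fell in both (32.3% and 75.3%).

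These counts depended on single libraries. Without untreated RelA-TA-KI replicate 2 or RelA-TA-KI 8 h replicate 2, 49 or 47 members were called at 8 h in RelA-TA-KI, and without WT 8 h replicate 2, 27 were called in WT. At 3 h the RelA-TA-KI count came to 17, 8, 6 and 14 without untreated replicate 1, 3 h replicate 1, untreated replicate 2 and 3 h replicate 2 of that genotype, and the WT count to 18 without untreated WT replicate 2. At 1 h, 1 member was left in RelA-TA-KI without 1 h replicate 1 or untreated replicate 2, and 1 in WT without 1 h replicate 1 or untreated replicate 2.

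**Figure D1:**
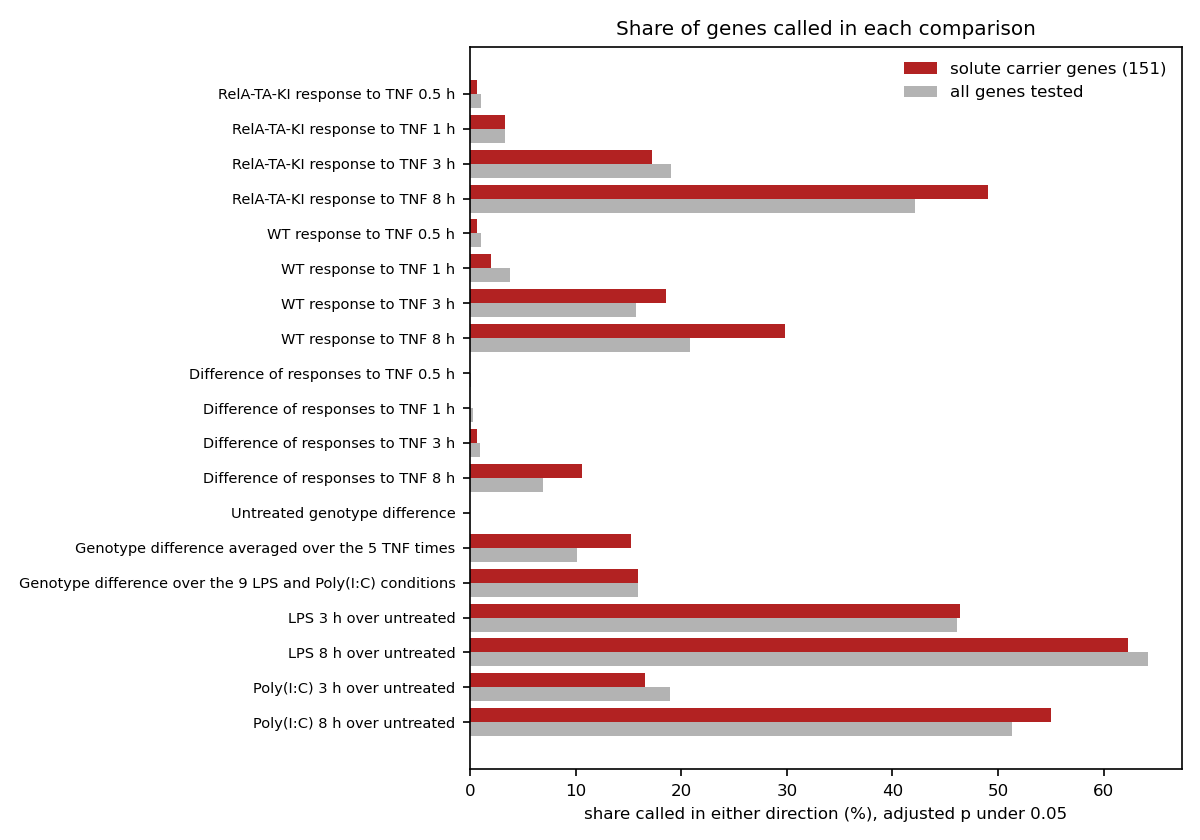
Share of members (151 Slc genes) and of all genes tested that were called at an adjusted p under 0.05, in percent on the horizontal axis, for each comparison down the page. Members and all genes have similar shares in most comparisons. At TNF 8 h the members' share is 49.0 against 42.1% in RelA-TA-KI and 29.8 against 20.8% in WT. Among all genes with a mean count of at least 50 (not drawn) the shares are 46.9 and 23.7%.

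The earliest responder in the main fit was Slc25a25, a calcium-regulated mitochondrial ATP-magnesium/phosphate carrier at chromosome 2, 32414487 to 32451445, minus strand. In that fit it was the only member called at 0.5 h in either genotype, whereas some other settings called more. In RelA-TA-KI libraries it had 15.4 and 17.6, 45.3 and 37.9, 43.3 and 40.1, 46.8 and 46.4 and then 56.8 and 55.7 CPM in replicates 1 and 2 before and 0.5, 1, 3 and 8 h after TNF. In WT libraries it had 22.3 and 17.5, 61.7 and 55.7, 85.4 and 86.7, 45.6 and 38.8 and then 39.1 and 35.1 CPM. All treated libraries lay above the untreated libraries of their genotype, and the WT values peaked at 1 h whereas those of RelA-TA-KI were highest at 8 h. The log2 change at 0.5 h was 1.33 (SE 0.13) in RelA-TA-KI (adjusted p = 2.75e-05) and 1.57 (SE 0.12) in WT (adjusted p = 1.82e-06). At 1 h RelA-TA-KI cells added Slc25a33 (mitochondrial pyrimidine nucleotides, log2 0.80), Slc20a1 (phosphate, 0.92), Slc7a1 (arginine and lysine, 0.47) and Slc30a4 (a zinc exporter, 0.41), and WT cells added Slc2a6 (log2 0.97) and Slc7a1 (0.38). Without 1 h replicate 1 of the genotype each of these 1 h calls other than that of Slc25a25 was lost (adjusted p 0.0864 to 0.281 in RelA-TA-KI and adjusted p 0.0538 to 0.159 in WT), as they were without untreated replicate 2. Slc25a25 shares 379 exon bases with Naif1 on the opposite strand.

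**Figure D2:**
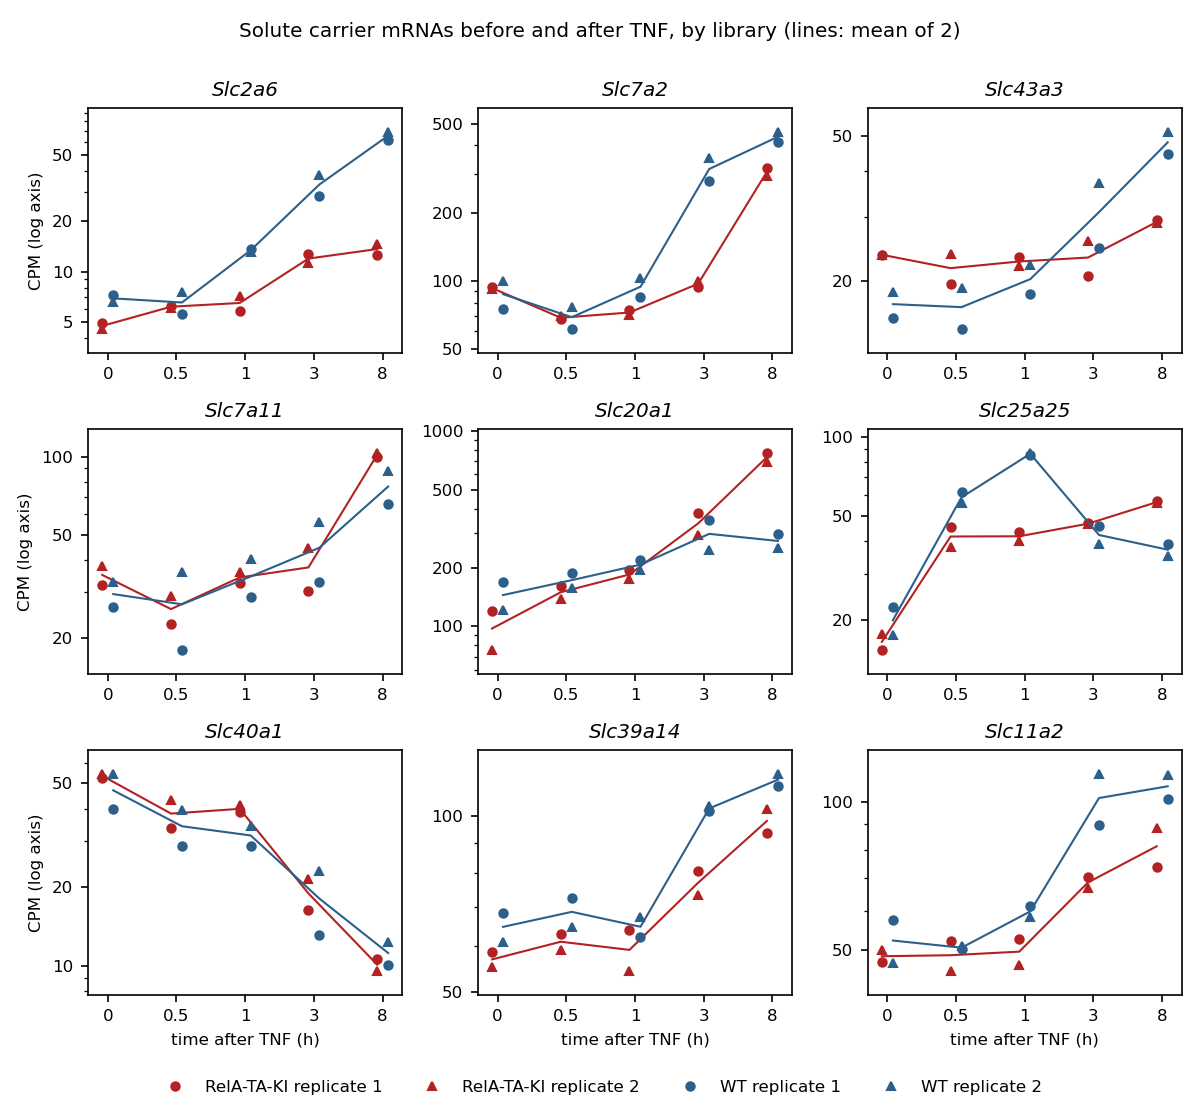
Levels of 9 members in CPM (log axis) against hours of TNF, with a point per replicate and a line through the mean of 2 for RelA-TA-KI (red) and WT (blue). Slc2a6 and Slc7a2 climb later or less in RelA-TA-KI, Slc20a1 climbs more, and Slc40a1 falls in both genotypes.

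Importers of basic amino acids and cystine rose by 8 h. Of the 26 carriers of amino acids and peptides, 11 rose and 4 fell in RelA-TA-KI cells and 7 rose in WT cells, beside 21.6% higher and 20.5% lower of all genes in RelA-TA-KI and 12% and 8.8% in WT. Slc7a2 (CAT2, an inducible arginine importer, at chromosome 8, 40862396 to 40922308, plus strand) had 94.5 and 100.1 CPM at 3 h against 94.3 and 91.7 CPM untreated in RelA-TA-KI, and 278 and 351 against 75.1 and 99.6 CPM in WT. Its WT libraries had thus separated from untreated cells by 3 h (log2 1.84 (SE 0.14), adjusted p = 8.26e-07), while those of RelA-TA-KI were nearly level with them (log2 0.07 (SE 0.14), adjusted p = 0.782). By 8 h it had 319 and 293 CPM in RelA-TA-KI and 414 and 459.7 CPM in WT, log2 changes of 1.72 (SE 0.14) and 2.32 (SE 0.14). The response at 3 h differed between genotypes by a log2 of -1.78 (SE 0.20) (adjusted p = 0.000401). Slc7a2 was the only member called for a difference at that time in the main fit (0.662% of members against 0.932% of all genes, 0.202% positive and 0.73% negative). More members were called with a replicate block or without the low-count filter. At 8 h the difference for Slc7a2 was -0.60 (SE 0.20) (adjusted p = 0.0822). Without WT 3 h replicate 1, 3 members were called for the 3 h difference, and Slc7a2 was called whichever single library was left out. It was not called without all libraries of RelA-TA-KI replicate 1 or of RelA-TA-KI replicate 2 (adjusted p = 0.164 and 0.132).

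Slc7a11 (xCT, which imports cystine in exchange for glutamate and so feeds glutathione synthesis) had 99.8 and 103 CPM at 8 h against 31.9 and 38.0 CPM untreated in RelA-TA-KI. In WT it had 65.4 and 87.8 against 26.3 and 32.8 CPM. Treated and untreated libraries did not overlap in either genotype, and the log2 changes of 1.54 (SE 0.29) and 1.37 (SE 0.30) were called (adjusted p = 0.000786 and 0.00434). Slc7a1 (CAT1, the constitutive arginine and lysine importer) rose by a log2 of 1.04 (SE 0.10) in RelA-TA-KI and 0.44 (SE 0.10) in WT, the WT call being lost without WT TNF 8 h replicate 2 (adjusted p = 0.0819). Slc43a3, a purine nucleobase carrier in a family of amino acid carriers, had 29.3 and 28.7 CPM at 8 h against 23.6 and 23.5 CPM untreated in RelA-TA-KI, and 44.7 and 51.3 against 15.8 and 18.7 CPM in WT. Its rise was called in WT (log2 1.47 (SE 0.18), adjusted p = 5.24e-05) and not in RelA-TA-KI (0.30 (SE 0.18), adjusted p = 0.201).

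Other light chains and neutral amino acid carriers were less uniform. Slc7a8 (LAT2) had 65.5 and 127 CPM at 8 h against 25.9 and 28.7 CPM untreated in RelA-TA-KI (log2 1.82 (SE 0.31), adjusted p = 0.00036), and 28.9 and 44.9 against 15.7 and 23.0 CPM in WT (log2 0.91 (SE 0.33), adjusted p = 0.0653). Its replicates differed widely, replicate 2 being higher throughout these 8 libraries, and the difference of the responses was not called (0.90 (SE 0.45), adjusted p = 0.251). Slc7a7 (y+LAT1, which exports basic amino acids) rose by a log2 of 0.94 (SE 0.33) in RelA-TA-KI and 1.70 (SE 0.34) in WT. The RelA-TA-KI call was lost without RelA-TA-KI TNF 8 h replicate 1, RelA-TA-KI TNF 8 h replicate 2, RelA-TA-KI untreated replicate 1 or RelA-TA-KI untreated replicate 2 (adjusted p 0.0524 to 0.18), and Slc7a7 shares 232 exon bases with Oxa1l on the opposite strand. Slc3a2, the common heavy chain, changed by 0.39 (SE 0.14) in RelA-TA-KI (a call lost without RelA-TA-KI TNF 8 h replicate 2, RelA-TA-KI untreated replicate 1 or RelA-TA-KI untreated replicate 2 (adjusted p 0.0856 to 0.237)) and by 0.29 (SE 0.14) in WT (adjusted p = 0.149), and its partner Slc7a5 by 0.23 (SE 0.22) and 0.05 (SE 0.23) (adjusted p = 0.433 and 0.907). Among the carriers that fell, Slc1a4 (a neutral amino acid exchanger) fell by a log2 of 0.68 at 8 h in RelA-TA-KI and by 0.76 at 3 h in WT.

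The macrophage markers moved with several of these genes. Over the 20 TNF libraries the log2 level of Slc37a2 (a glucose-6-phosphate exchanger of the endoplasmic reticulum) correlated with their summed level at r = 0.900, Slc43a2 at 0.885, Slc3a2 at 0.878, Slc16a6 at 0.876, Slc11a1 at 0.871 and Slc7a8 at 0.869, as descriptions across libraries that share genotype, replicate and time. Slc16a6, with a mean count of 60.7, shares 1052 exon bases with Amz2 on the opposite strand, whose mean count was 322. The r largest in size was negative, -0.925 for Slc25a4. Among other members described here r was 0.798 for Slc7a5, 0.740 for Slc15a3, 0.719 for Slc16a10, 0.701 for Slc7a11, 0.622 for Slc7a7, -0.678 for Slc27a3 and -0.769 for Slc24a3. It was 0.337 for Slc7a2, 0.265 for Slc20a1, 0.0495 for Slc2a6 and -0.221 for Slc40a1. The summed markers had 2847 and 5409 CPM at 8 h against 1998 and 3362 CPM untreated in RelA-TA-KI, and 1705 and 2716 against 1475 and 2313 CPM in WT. Slc11a1 (NRAMP1, a metal exporter of phagosomes in macrophages) rose by a log2 of 1.34 (SE 0.34) in RelA-TA-KI at 8 h, a call lost without RelA-TA-KI TNF 8 h replicate 2 (adjusted p = 0.116), and changed by 0.95 (SE 0.37) in WT (adjusted p = 0.0843). Fewer cells of a type and less RNA per cell cannot be told apart in these bulk libraries, and the part of macrophages in these values was not tested.

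Among sugar carriers, Slc2a6 stood out. This gene, at chromosome 2, 27021363 to 27027998, minus strand, encodes GLUT6, a hexose carrier of intracellular membranes. In RelA-TA-KI it had 4.91 and 4.52, 6.25 and 6.05, 5.79 and 7.17, 12.7 and 11.3 and then 12.6 and 14.7 CPM in replicates 1 and 2 before and 0.5, 1, 3 and 8 h after TNF. In WT it had 7.25 and 6.56, 5.54 and 7.51, 13.7 and 13.1, 28.6 and 38.1 and then 62.0 and 69.1 CPM. Every library at 3 and 8 h lay above the untreated libraries of its genotype, and the WT libraries lay above those of RelA-TA-KI at both times. The log2 change at 8 h was 1.53 (SE 0.19) in RelA-TA-KI and 3.25 (SE 0.16) in WT (adjusted p = 2.01e-05 and 9.13e-09), and the difference of -1.72 (SE 0.26) was called (adjusted p = 0.00156) whichever single library was left out. Without all libraries of RelA-TA-KI replicate 1 or of RelA-TA-KI replicate 2 it was not (adjusted p = 0.0912 and 0.0938).

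The other sugar carriers moved less or fell. Slc2a1 (GLUT1, the main glucose importer of most cells) had 205 and 199.5 CPM at 8 h against 96.2 and 82.2 CPM untreated in RelA-TA-KI, and 173 and 162 against 147 and 102 CPM in WT. The rise was called in RelA-TA-KI (log2 1.18 (SE 0.21), adjusted p = 0.000567) and not in WT (0.43 (SE 0.21), adjusted p = 0.174), and the difference was not called (0.75 (SE 0.30), adjusted p = 0.152). Slc2a8 (GLUT8, an intracellular carrier) fell by a log2 of 1.15 in RelA-TA-KI (adjusted p = 4.26e-05), with 7.41 and 5.97 CPM at 8 h against 13.9 and 15.8 CPM untreated, and had 9.35 and 9.55 against 10.9 and 13.0 CPM in WT (log2 -0.35 (SE 0.15), adjusted p = 0.125). Slc2a3 (GLUT3, a high-affinity glucose importer) fell in WT by a log2 of 0.87, a call lost without WT TNF 8 h replicate 2 or WT untreated replicate 1 (adjusted p 0.256 to 0.271). Of the 12 sugar carriers, 2 rose and 4 fell at 8 h in RelA-TA-KI and 2 rose and 1 fell in WT, where all genes had 21.6 and 20.5% in RelA-TA-KI and 12 and 8.8% in WT.

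The mRNA of the iron exporter fell while those of several metal importers rose. Slc40a1 (ferroportin, the only known iron exporter of vertebrate cells, at chromosome 1, 45908068 to 45926523, minus strand) had 52.6 and 54.4, 33.6 and 43.0, 38.7 and 41.2, 16.3 and 21.6 and then 10.7 and 9.57 CPM in RelA-TA-KI before and 0.5, 1, 3 and 8 h after TNF, and 39.9 and 54.2, 28.9 and 39.6, 28.8 and 34.4, 13.1 and 23.1 and then 10.1 and 12.3 CPM in WT. All libraries at 3 and 8 h lay below every untreated library in both genotypes. At 8 h the log2 change was -2.40 (SE 0.25) in RelA-TA-KI and -2.07 (SE 0.25) in WT (adjusted p = 4.71e-06 and 3.82e-05), and the difference of -0.33 (SE 0.36) was not called (adjusted p = 0.632). Slc39a14 (ZIP14, an importer of zinc, iron and manganese) had 93.6 and 103 CPM at 8 h against 58.5 and 55.3 CPM untreated in RelA-TA-KI, and 113 and 118 against 68.3 and 61.0 CPM in WT, log2 changes of 0.79 (SE 0.09) and 0.84 (SE 0.09) (adjusted p = 1.33e-05 and 1.51e-05). Slc11a2 (DMT1, the proton-coupled importer of ferrous iron) had 73.9 and 88.6 against 47.2 and 50.0 CPM in RelA-TA-KI and 102 and 114 against 57.4 and 47.1 CPM in WT, log2 changes of 0.74 (SE 0.13) and 1.05 (SE 0.13) (adjusted p = 0.000373 and 4.25e-05). In all 4 pairs of groups for these importers the treated libraries lay above the untreated ones. Of the 25 carriers of metals and heme, 7 rose and 2 fell in RelA-TA-KI at 8 h, and 6 rose and 1 fell in WT, against the same shares of all genes (21.6 and 20.5%, and 12 and 8.8%).

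Over the 20 TNF libraries, the members whose log2 levels were most like those of Slc39a14 were Slc11a2 (Pearson r = 0.954), Slc25a37 (0.920) and Slc7a2 (0.917), a description across libraries that share times and genotypes. Slc25a37 (mitoferrin 1, which brings iron into mitochondria) rose by a log2 of 1.36 (SE 0.23) in RelA-TA-KI and 1.06 (SE 0.22) in WT at 8 h, the WT call being lost without WT untreated replicate 2 (adjusted p = 0.0537). Slc30a1 (ZnT1, which exports zinc from the cytosol) changed by 0.23 (SE 0.10) and -0.12 (SE 0.11), neither called (adjusted p = 0.0879 and 0.476).

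The phosphate importer Slc20a1 (PiT1, at chromosome 2, 129198764 to 129211616, plus strand) gave the largest positive difference between the genotypes. In RelA-TA-KI it had 119 and 75.8, 162 and 137, 194 and 174, 379 and 293 and then 769.8 and 695 CPM in replicates 1 and 2 before and 0.5, 1, 3 and 8 h after TNF. In WT it had 168 and 121, 188 and 157, 219.7 and 194, 349 and 245 and then 295 and 252 CPM. The untreated libraries of RelA-TA-KI lay below those of WT and its 8 h libraries lay above the 8 h libraries of WT. The log2 change at 8 h was 2.91 (SE 0.23) in RelA-TA-KI (adjusted p = 4.21e-07) and 0.92 (SE 0.22) in WT (adjusted p = 0.0078), the WT call being lost without WT TNF 8 h replicate 1 or WT untreated replicate 2 (adjusted p 0.0603 to 0.103). The difference of 1.99 (SE 0.31) (adjusted p = 0.00227) was called whichever single library was left out, but not without all libraries of RelA-TA-KI replicate 2 (adjusted p = 0.104).

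Other ion carriers rose or fell. Slc4a7 (NBCn1, sodium bicarbonate import) rose by a log2 of 1.16 (SE 0.14) in RelA-TA-KI and 0.47 (SE 0.14) in WT at 8 h, the WT call being lost without WT TNF 8 h replicate 1, WT TNF 8 h replicate 2 or WT untreated replicate 2 (adjusted p 0.0767 to 0.229). The sodium-calcium exchangers went the other way in RelA-TA-KI: Slc24a3 (NCKX3) had 26.6 and 18.5 CPM at 8 h against 38.2 and 37.7 CPM untreated in RelA-TA-KI, and 66.9 and 54.8 against 59.2 and 48.3 CPM in WT. Its log2 change of -0.76 (SE 0.17) was called in RelA-TA-KI (adjusted p = 0.00225) and that of 0.18 (SE 0.15) in WT was not (adjusted p = 0.446). Slc8a1 (NCX1) fell by a log2 of 0.62 in RelA-TA-KI, a call lost without RelA-TA-KI TNF 8 h replicate 1 or RelA-TA-KI untreated replicate 2 (adjusted p 0.0708 to 0.0816), and changed by 0.38 (SE 0.16) in WT (adjusted p = 0.119). Of the 20 carriers of ions, protons and phosphate, 4 rose and 7 fell in RelA-TA-KI at 8 h (21.6 and 20.5% of all genes), and 6 rose and 1 fell in WT (12 and 8.8%).

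Of the 30 mitochondrial carriers, 8 rose and 5 fell at 8 h in RelA-TA-KI (21.6 and 20.5% of all genes), and 6 rose and 2 fell in WT (12 and 8.8%). Slc25a30, a carrier of the uncoupling protein subfamily, had 17.8 and 19.3 CPM at 8 h against 10.4 and 11.4 CPM untreated in RelA-TA-KI (log2 0.77 (SE 0.14), adjusted p = 0.00064), and 11.8 and 12.1 against 16.4 and 13.6 CPM in WT (log2 -0.32 (SE 0.14), adjusted p = 0.133). The values lay in opposite directions, and only the rise in RelA-TA-KI was called. Slc25a33 rose by 1.25 (SE 0.14) in RelA-TA-KI and 0.44 (SE 0.14) in WT, the WT call being lost without WT TNF 8 h replicate 1, WT TNF 8 h replicate 2, WT untreated replicate 1 or WT untreated replicate 2 (adjusted p 0.0515 to 0.274). Slc25a23, a calcium-regulated ATP-magnesium carrier like Slc25a25, fell by a log2 of 1.06 in RelA-TA-KI and 0.86 in WT (adjusted p = 5.62e-05 and 0.00074), so that these relatives changed in opposite directions in both genotypes. Slc25a42 (coenzyme A) fell at 3 h by 0.82 in RelA-TA-KI and 1.16 in WT (adjusted p = 0.0178 and 0.00245), the RelA-TA-KI call being lost without RelA-TA-KI TNF 3 h replicate 2, RelA-TA-KI untreated replicate 1 or RelA-TA-KI untreated replicate 2 (adjusted p 0.0716 to 0.157). Slc25a5 (ANT2) rose by 0.48 (SE 0.09) in RelA-TA-KI and changed by 0.22 (SE 0.09) in WT (adjusted p = 0.000672 and 0.0993).

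Carriers of hormones and fatty acids moved in both directions. Slc27a3, a fatty acid transport protein, fell by a log2 of 1.52 in RelA-TA-KI and 0.97 in WT (adjusted p = 2.08e-07 and 1.44e-05). Slc16a4, a monocarboxylate carrier relative, fell by 1.68 and 1.18, the WT call being lost without WT TNF 8 h replicate 2 or WT untreated replicate 1 (adjusted p 0.175 to 0.278). Slc16a10 (aromatic amino acids and thyroid hormone) rose by 1.45 (SE 0.25) and 1.28 (SE 0.26) (adjusted p = 0.000344 and 0.00257). The lactate carriers Slc16a1 (MCT1) and Slc16a3 (MCT4) changed by 0.26 (SE 0.13) and 0.83 (SE 0.24) in RelA-TA-KI and by 0.38 (SE 0.13) and 0.23 (SE 0.23) in WT (adjusted p = 0.136, 0.0112, 0.0545 and 0.54), and the call of Slc16a3 in RelA-TA-KI was lost without RelA-TA-KI untreated replicate 2 (adjusted p = 0.115).

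The difference of responses, the RelA-TA-KI response minus the WT response, was called for 16 members at 8 h (9 positive and 7 negative). That is 10.6% of the members against 6.87% of all genes (3.45% positive and 3.42% negative), or 8.25% of all genes with a mean count of at least 50. The positive ones, larger or more upward in RelA-TA-KI, were led by Slc20a1 at 1.99, Slc25a30 at 1.09, Slc25a25 at 0.86, Slc25a33 at 0.82, the taurine importer Slc6a6 at 0.75 and Slc4a7 at 0.68, with Slc7a1 at 0.59. The negative ones included Slc2a6 at -1.72, Slc43a3 at -1.17, Slc8a1 at -1.001, Slc24a3 at -0.94 and Slc2a8 at -0.81. Of the 30 mitochondrial carriers 3 were positive (Slc25a30, Slc25a25 and Slc25a33), beside 3.45% of all genes. Of the 25 carriers of metals and heme 0 were called, beside 6.87% of all genes in either direction. These small counts were not tested against those shares. Of those named here, Slc2a6, Slc20a1 and Slc25a30 (adjusted p = 0.00156, 0.00227 and 0.00619) were called whichever single library was left out, and Slc25a25 was lost without WT untreated replicate 1 (adjusted p = 0.058) alone. Without all libraries of RelA-TA-KI replicate 2, 0 members were called, the adjusted p being 0.104 for Slc20a1, 0.182 for Slc25a30 and 0.0938 for Slc2a6. Slc25a30 was also lost without all libraries of RelA-TA-KI replicate 1 (adjusted p = 0.117) or of WT replicate 1 (0.0572). The others named here were lost without untreated RelA-TA-KI replicate 2 (adjusted p 0.057 to 0.187) and without at least 3 further libraries. Also called were Slc6a8 (creatine) at 0.48, Slc35a3 (nucleotide sugars of the Golgi) at 0.52 and Slc27a3 at -0.55 (adjusted p = 0.019, 0.0226 and 0.0441), lost among others without untreated RelA-TA-KI replicate 2 (adjusted p 0.0785 to 0.12). The count came to 5 without untreated WT replicate 1 or untreated RelA-TA-KI replicate 2, to 6 without RelA-TA-KI 8 h replicate 2, and to 10 without WT 8 h replicate 1, WT 8 h replicate 2 or untreated RelA-TA-KI replicate 1. At 0.5 and 1 h edgeR called 0 members (0.0506 and 0.311% of all genes), with 3 and 10 at an unadjusted p under 0.05, and DESeq2 called 0 at both times. More differences were called at 1 and 8 h with a replicate block or without the low-count filter.

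**Figure D3:**
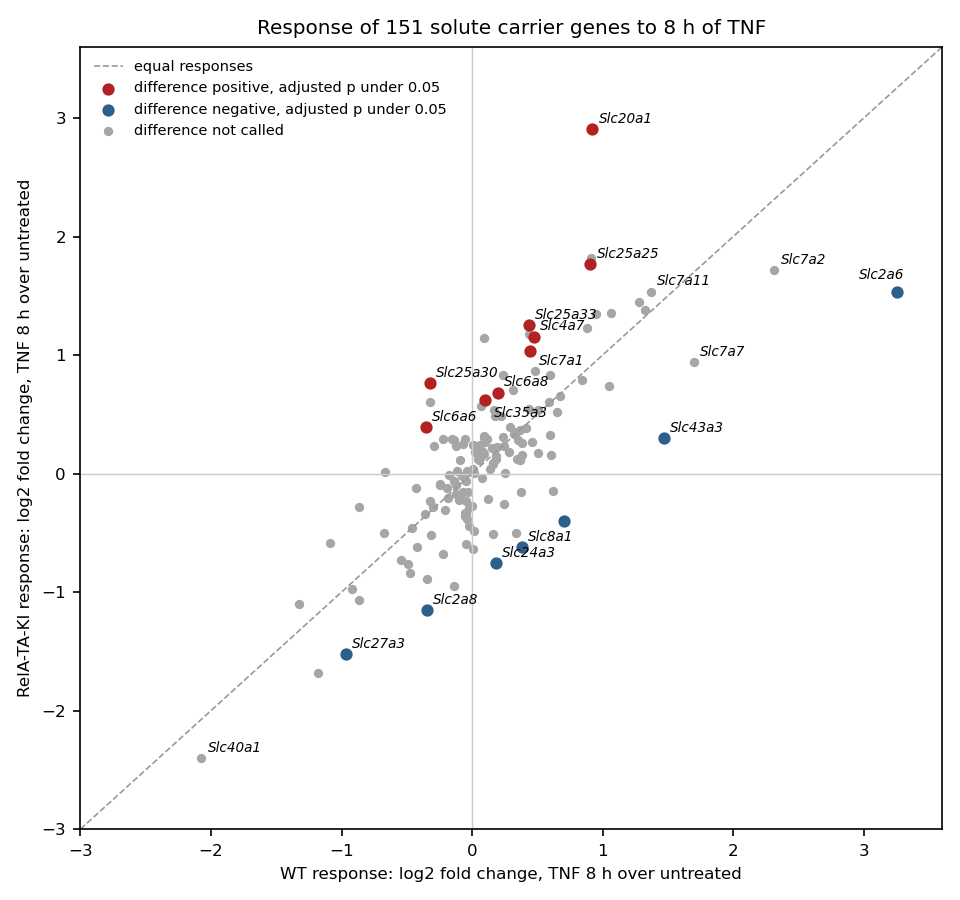
Log2 change at TNF 8 h in RelA-TA-KI (vertical axis) against that in WT (horizontal axis) for 151 members, a point per gene, coloured where the difference of responses was called. Most members lie near the diagonal; Slc20a1 lies above it at 2.91 against 0.92, and Slc2a6 below it at 1.53 against 3.25.

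For the untreated genotype difference edgeR called 0 members (0.00722% of all genes), with 18 at an unadjusted p under 0.05 and 0 by DESeq2. Members were called with a replicate block or without the low-count filter, so an absence of untreated differences is not shown. Averaged over the 5 TNF times, 23 members were called, 7 higher and 16 lower in RelA-TA-KI, which is 15.2% against 10.1% of all genes (4.56% higher and 5.54% lower), or 15 without RelA-TA-KI 0.5 h replicate 2. Over the 9 conditions of the LPS and Poly(I:C) experiment, 24 were called, 12 in each direction, 15.9% of members and 15.9% of all genes (7.66% higher and 8.21% lower). That experiment shares no library with the first, and its p-values measure how a genotype difference varied over conditions. It took the libraries of a genotype as independent, and the labels do not say whether they shared a source. Xist differed between the genotypes there, so genotype cannot be told apart from sex or source of the cells. Among all genes with a mean count of at least 50, 11.7% were called for the averaged TNF difference. The averaged TNF test took the libraries of a genotype as independent across times. Same-numbered samples within a genotype were correlated (r 0.161 to 0.529), so its standard errors and p-values can overstate the evidence.

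Lower in RelA-TA-KI in both experiments were Slc2a6, Slc7a2, Slc24a3, Slc29a1 (ENT1, a nucleoside carrier) and Slc11a2, 31.2% of those lower in the first and 41.7% of those lower in the second. Slc2a6 differed by a log2 of -1.09 (SE 0.08) in the TNF experiment and -1.25 (SE 0.20) in the other. Slc7a2 differed by -0.50 (SE 0.06) and -0.84 (SE 0.14). Slc24a3 differed by -0.63 (SE 0.07) and -0.73 (SE 0.08). Slc29a1 differed by -0.28 (SE 0.05) and -0.88 (SE 0.14). Slc11a2 differed by -0.28 (SE 0.06) and -0.30 (SE 0.09), the second call being lost without RelA-TA-KI LPS 0.5 h, RelA-TA-KI LPS 1 h, RelA-TA-KI LPS 3 h, RelA-TA-KI LPS 8 h, RelA-TA-KI Poly(I:C) 8 h, WT LPS 0.5 h, WT LPS 1 h, WT LPS 3 h, WT LPS 8 h or WT Poly(I:C) 8 h (adjusted p 0.059 to 0.0803). Slc5a7 (the choline importer of cholinergic neurons) was higher in both, by 0.49 (SE 0.11) and 0.87 (SE 0.13). Slc12a4 (a potassium-chloride exporter) was called in opposite directions, at -0.13 (SE 0.03) and 0.18 (SE 0.04), the first call being lost without RelA-TA-KI TNF 0.5 h replicate 2, RelA-TA-KI TNF 1 h replicate 2, RelA-TA-KI TNF 3 h replicate 2, RelA-TA-KI TNF 8 h replicate 2, RelA-TA-KI untreated replicate 2, WT TNF 0.5 h replicate 1, WT TNF 3 h replicate 1, WT TNF 8 h replicate 1 or WT untreated replicate 1 (adjusted p 0.0505 to 0.0628). Among all 12690 genes tested in both experiments, 463 were called in both and 432 of them with the same sign.

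Some members were called in 1 experiment and not in the other, and the difference between the experiments was not tested. Slc22a23, an organic ion carrier relative, was higher in RelA-TA-KI by 1.10 (SE 0.17) in the LPS and Poly(I:C) experiment (adjusted p = 0.001) and by 0.19 (SE 0.06) in the TNF experiment (adjusted p = 0.0655). Slc20a1 differed by 0.88 (SE 0.18) (adjusted p = 0.00611) against 0.13 (SE 0.10) (adjusted p = 0.419), and Slc2a3 by 0.70 (SE 0.10) (adjusted p = 0.000521) against 0.01 (SE 0.12) (adjusted p = 0.978). Slc37a2 and Slc7a8 followed the macrophage markers over the TNF libraries. They were higher in RelA-TA-KI in the TNF experiment by 0.64 (SE 0.15) and 0.62 (SE 0.15). The marker sum there had a median of 2471 CPM in RelA-TA-KI and 1735 CPM in WT. In the LPS and Poly(I:C) experiment, where that median was 5421 CPM in RelA-TA-KI and 6507 CPM in WT, they differed by -0.10 (SE 0.16) and 0.12 (SE 0.13) (adjusted p = 0.732 and 0.578). With LPS at 8 h Slc37a2 changed by a shared log2 of -2.46 (SE 0.37) (edgeR adjusted p = 0.00012), whereas Slc7a8 was called higher. The marker sum was above its untreated value in both genotypes there. The part of these cells in the genotype differences was not tested.

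**Figure D4:**
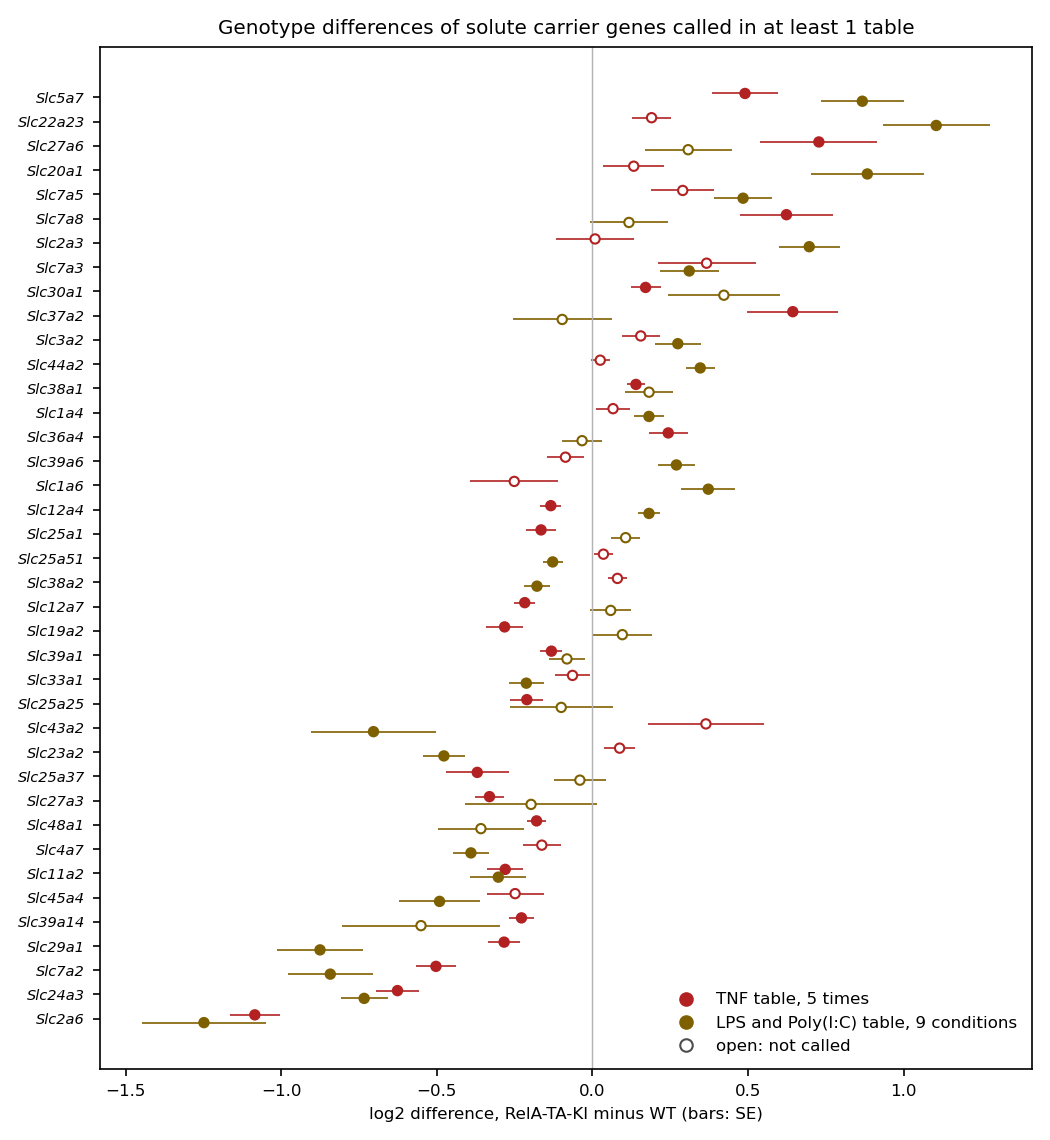
Log2 difference RelA-TA-KI minus WT with its standard error, averaged over 5 TNF times and over 9 LPS and Poly(I:C) conditions, for reported members called in at least 1 of the experiments, with filled points where called. Slc2a6 is lowest in both, at -1.09 and -1.25.

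At 8 h more members were called with LPS or Poly(I:C) than with TNF, each in its own experiment and test, and the largest changes were larger. The test was of the change shared by both genotypes against their own untreated libraries, with the spread being how the change varied between genotypes, and the LPS and Poly(I:C) comparisons share those untreated libraries. At 3 h 70 members were called with LPS (37 higher and 33 lower, 46.4% against 46.1% of all genes) and 25 with Poly(I:C) (17 and 8, 16.6% against 18.9%). At 8 h 94 were called with LPS (55 and 39, 62.3% against 64.2%) and 83 with Poly(I:C) (47 and 36, 55.0% against 51.3%), so the members' shares were close to those of all genes. Without WT LPS 3 h the LPS 3 h count was 44, and without WT Poly(I:C) 3 h or the untreated RelA-TA-KI library the Poly(I:C) 3 h count was 15 or 16. At 8 h, 27 members were at least 2-fold higher and 15 at least 2-fold lower with LPS in both genotypes, and 20 and 6 with Poly(I:C). These were 17.9 and 9.93% of the members with LPS against 12.1 and 13.8% of all genes, and 13.2 and 3.97% with Poly(I:C) against 8.54 and 5.93%. The next counts use the fold of each genotype's single library, without a test. They also ask for at least 5 CPM in the treated or untreated library, a minimum that the counts for both genotypes did not have. With LPS at 8 h 30 members were at least 2-fold higher and 21 lower in RelA-TA-KI and 36 and 20 in WT. Of 12752 genes, 1884 were higher and 1710 lower in RelA-TA-KI and 1905 and 1830 in WT (28.2 and 29.3% in either direction). With Poly(I:C) 28 members were higher and 15 lower in RelA-TA-KI and 23 and 8 in WT. Of all genes, 1718 were higher and 1427 lower in RelA-TA-KI and 1176 and 689 in WT (24.7 and 14.6% in either direction). Macrophage markers moved with these agents too, 11 of 20 rising and 5 falling with LPS at 8 h (median log2 0.71) and 12 rising and 1 falling with Poly(I:C) (0.92). Their sum was 7268 CPM with LPS and 8263 with Poly(I:C) against 4884 CPM untreated in RelA-TA-KI, and 7377 and 6571 against 5447 CPM in WT. Their part in these changes was not tested.

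Slc2a6 had the largest shared rise with both agents at 8 h. It had 138 CPM after 8 h of LPS and 121 after 8 h of Poly(I:C) against 4.22 CPM untreated in the RelA-TA-KI libraries, and 383 and 162 against 6.92 CPM in the WT libraries. The shared log2 change was 5.46 (SE 0.45) with LPS and 4.78 (SE 0.44) with Poly(I:C) (adjusted p = 1.29e-06 and 5.83e-06). Slc15a3 (a lysosomal carrier of histidine and peptides, some of them bacterial) had 498 and 330.0 against 30.9 CPM in RelA-TA-KI, and 733 and 199 against 29.2 CPM in WT, shared log2 changes of 4.36 (SE 0.27) and 3.14 (SE 0.26). Both genes were higher in every 8 h library than in the untreated libraries, and Slc15a3 shares 1541 exon bases with Tmem132a on the opposite strand. Slc25a22 (a mitochondrial glutamate carrier) had 243 and 242 against 19.7 CPM in RelA-TA-KI, and 225 and 203 against 21.4 CPM in WT. Its shared log2 changes were 3.51 (SE 0.13) and 3.43 (SE 0.13), whereas TNF at 8 h gave 0.54 (SE 0.13) in RelA-TA-KI and 0.50 (SE 0.13) in WT, in other libraries. Those TNF calls were lost without RelA-TA-KI untreated replicate 2 (adjusted p = 0.0633) in RelA-TA-KI and without WT TNF 8 h replicate 2, WT untreated replicate 1 or WT untreated replicate 2 (adjusted p 0.0535 to 0.106) in WT.

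Several members answered LPS but not Poly(I:C) by this test. Slc39a14 had 175 CPM after 8 h of LPS and 45.5 after 8 h of Poly(I:C) against 47.5 CPM untreated in RelA-TA-KI, and 969.8 and 68.0 against 55.5 CPM in WT. Its shared log2 change was 3.30 (SE 0.56) with LPS (adjusted p = 0.000287) and 0.11 (SE 0.53) with Poly(I:C) (adjusted p = 0.871). Slc16a1, the lactate carrier, had 169 and 69.8 against 76.0 CPM in RelA-TA-KI and 922 and 72.7 against 84.8 CPM in WT, shared changes of 2.61 (SE 0.49) (adjusted p = 0.000629) and -0.17 (SE 0.47) (adjusted p = 0.784). Slc16a3, which exports lactate from glycolytic cells, had 30.8 against 22.3 CPM in RelA-TA-KI and 139 against 24.5 CPM in WT with LPS, a shared change of 1.79 (SE 0.44) that was not called without WT LPS 8 h (adjusted p = 0.088). In all 3 the LPS 8 h library of WT was well above that of RelA-TA-KI, but with 1 library per genotype a difference of responses has no replicate check. The difference between the agents was not tested.

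Arginine and cystine importers rose with both agents. Slc7a2 had 946 CPM with LPS and 294 with Poly(I:C) at 8 h against 87.1 CPM untreated in RelA-TA-KI, and 2744 and 392 against 118 CPM in WT, shared changes of 4.02 (SE 0.32) and 1.75 (SE 0.29). Slc7a11 changed by 3.20 (SE 0.34) and 1.58 (SE 0.34) (adjusted p = 9.35e-06 and 0.00244). Slc7a1 changed by 1.32 (SE 0.22) and 1.23 (SE 0.22) (adjusted p = 0.000254 and 0.000727). Slc2a1 had 198 and 134 against 44.6 CPM in RelA-TA-KI and 432 and 83.5 against 40.7 CPM in WT, shared changes of 2.88 (SE 0.31) and 1.35 (SE 0.30). Slc20a1 changed by 2.16 (SE 0.39) and 2.32 (SE 0.39) and was higher in RelA-TA-KI at 8 h of both agents, with 332 and 400.1 CPM, against 103 and 100.2 CPM in WT. Slc16a10 rose by 2.43 (SE 0.23) with Poly(I:C) and by 0.76 (SE 0.24) with LPS, a call lost without RelA-TA-KI untreated, WT LPS 8 h or WT untreated (adjusted p 0.0556 to 0.254). The iron carriers of mitochondria, Slc25a37 and Slc25a28 (mitoferrin 2), rose by 2.45 (SE 0.18) and 2.25 (SE 0.18) with LPS and by 1.43 (SE 0.18) and 1.81 (SE 0.19) with Poly(I:C). Slc25a44 (branched-chain amino acids in mitochondria) rose by 1.46 (SE 0.17) and 1.63 (SE 0.17), while with TNF at 8 h it changed by 0.11 (SE 0.10) in RelA-TA-KI and -0.09 (SE 0.10) in WT (adjusted p = 0.379 and 0.578).

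Falls were led by the same iron exporter as with TNF. Slc40a1 had 4.49 CPM with LPS and 9.14 with Poly(I:C) at 8 h against 66.7 CPM untreated in RelA-TA-KI, and 5.01 and 13.6 against 63.9 CPM in WT. Its shared change was -3.78 (SE 0.28) and -2.51 (SE 0.24) (adjusted p = 4.73e-07 and 7.8e-06). Slc25a42 changed by -3.30 (SE 0.44) and -1.50 (SE 0.34), Slc2a8 by -2.54 (SE 0.22) and -1.24 (SE 0.18), the fatty acid transport protein Slc27a6 by -2.44 (SE 0.36) and -1.46 (SE 0.32), and the sulfate carrier Slc26a11 by -1.81 (SE 0.23) and -1.56 (SE 0.22), all called. Slc38a2, among the most abundant members, fell by a log2 of 0.47 with LPS and 0.82 with Poly(I:C) at 8 h, also called.

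**Figure D5:**
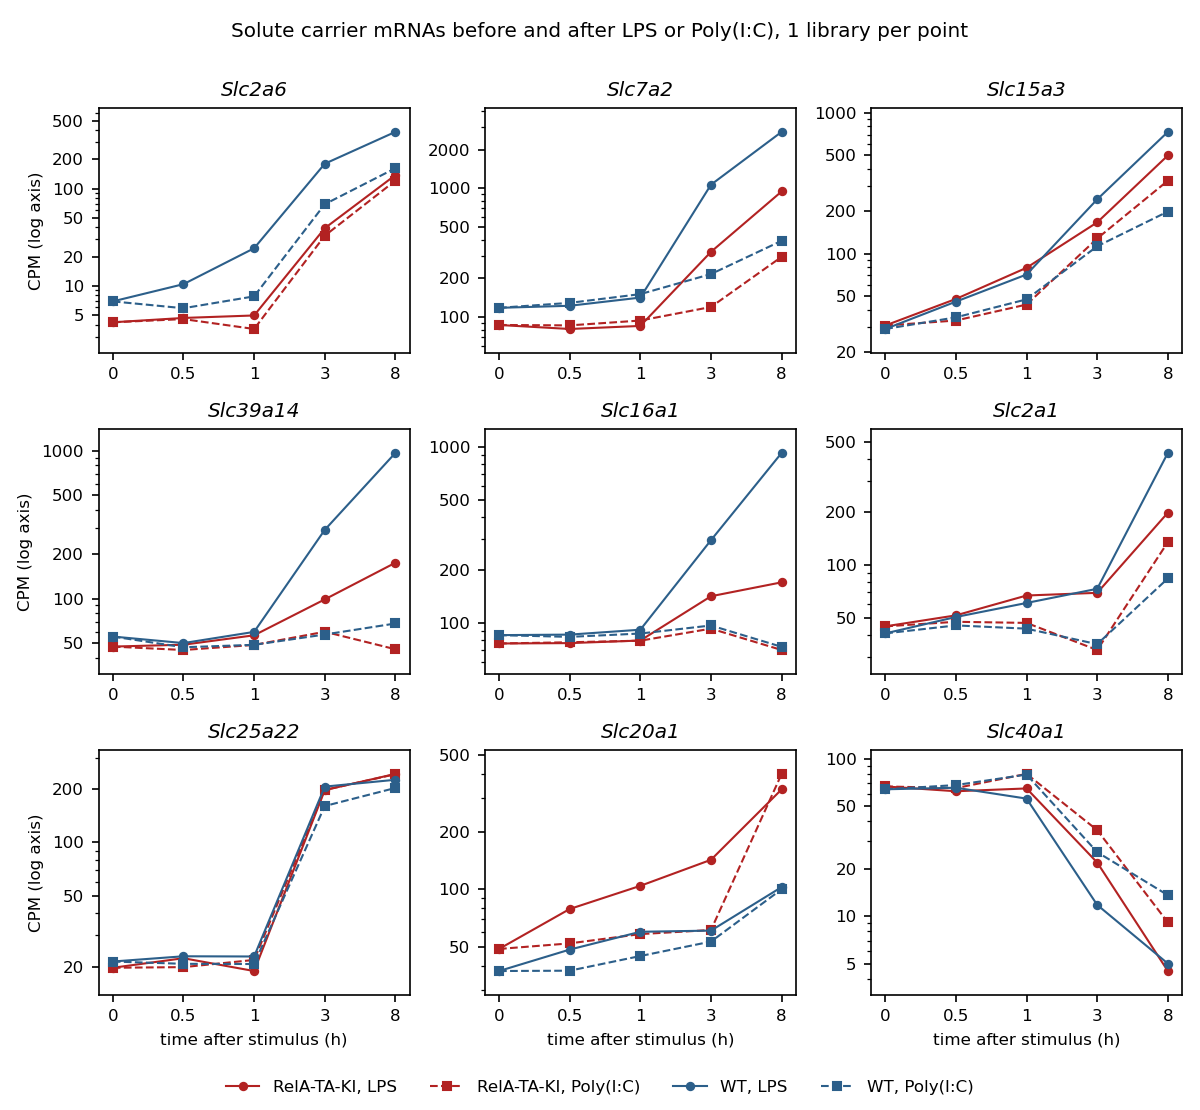
Levels of 9 members in CPM (log axis) against hours of LPS or Poly(I:C), 1 library per point, for RelA-TA-KI (red) and WT (blue). Slc2a6, Slc15a3 and Slc25a22 climb with both agents, Slc39a14 and Slc16a1 climb with LPS, and Slc40a1 falls with both.

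Enzymes and partners of the same pathways were counted from lists that are not solute carriers. All genes higher and lower at 8 h made up 21.6 and 20.5% with TNF in RelA-TA-KI, 12 and 8.8% with TNF in WT, 30.9 and 33.2% with LPS and 25.2 and 26.1% with Poly(I:C). Of 14 glycolytic genes, 2 rose in RelA-TA-KI and 1 in WT at TNF 8 h, 13 rose with LPS at 8 h (median log2 1.37 against -0.05 over all genes), and 4 rose and 1 fell with Poly(I:C). Hk2 (hexokinase 2) rose by 2.03 (SE 0.20) in RelA-TA-KI and 0.81 (SE 0.19) in WT, the WT call being lost without WT TNF 8 h replicate 1 or WT untreated replicate 2 (adjusted p 0.0501 to 0.112). Of 9 genes of glutathione synthesis and redox defence, some of which use the cystine that Slc7a11 imports, 7 rose in RelA-TA-KI (median 0.56 against -0.02) and 4 in WT (0.29 against -0.01). Srxn1 (sulfiredoxin) rose by 1.47 (SE 0.08) and 0.50 (SE 0.08), and the difference of 0.97 (SE 0.11) was called (adjusted p = 0.000187), as was that of Hmox1 (heme oxygenase 1) at 0.77 (SE 0.13) (adjusted p = 0.00411). With LPS 4 of these 9 rose and 1 fell, and with Poly(I:C) 2 rose and 2 fell.

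Of 11 tested genes of iron and zinc handling, 5 rose and 1 fell in RelA-TA-KI and 4 rose and 1 fell in WT at TNF 8 h, against 8 and 2 with LPS and 3 and 1 with Poly(I:C). The metallothionein Mt2, which binds zinc, rose by 1.46 (SE 0.13) in RelA-TA-KI and 1.92 (SE 0.14) in WT. Steap4, a metalloreductase, changed by 0.53 (SE 0.50) in RelA-TA-KI (adjusted p = 0.418) and rose by 4.10 (SE 0.48) in WT (adjusted p = 2.93e-05), a difference of -3.57 (SE 0.71) (adjusted p = 0.00937). Of 13 genes of the amino acid response, 3 rose and 2 fell in RelA-TA-KI and 3 rose in WT at TNF 8 h, and 7 rose with each of LPS and Poly(I:C), with 3 and 2 falling. Of 17 ion pumps, ABC transporters and other carriers outside the Slc symbols, 9 rose in RelA-TA-KI and 8 in WT, 11 rose and 1 fell with LPS, and 10 rose with Poly(I:C). Tap2, which with Tap1 carries peptides into the endoplasmic reticulum, changed by 0.27 (SE 0.23) in RelA-TA-KI (adjusted p = 0.361) and rose by 1.92 (SE 0.22) in WT (adjusted p = 2.79e-05), a difference of -1.65 (SE 0.32) (adjusted p = 0.00772).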

How the data were processed

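Stranded poly(A) mRNA-seq libraries (38 in 28 groups) were analysed. Per the submitters' processing notes, cutadapt 1.9.1, STAR, featureCounts 1.4.6, DESeq2 and mm10 were used; annotation release and strand setting are not given in the sources used here. The authors deposited raw read counts per gene in a TNF table and an LPS and Poly(I:C) table of 45706 identifiers each, 45143 of them given a symbol. Members and gene lists were chosen with earlier results of these data known. Some members are counted but not reported by name here.

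The main test was the edgeR 4.0.16 quasi-likelihood F test (R 4.3.3, limma 3.58.1; TMM, filterByExpr, Benjamini-Hochberg over all genes, threshold 0.05), with a mean per group and 10 residual degrees of freedom for TNF, and condition plus genotype with 8 for the other table. The standard error (SE) is the absolute log2 fold change over the square root of F. The biological coefficient of variation was 10.2% for TNF and 12.7% in the other. CPM are TMM-scaled, and log2 ratios add a prior count of 2. The tests were tried on simulated data. DESeq2 1.42.0, RLE scaling, no filter, a replicate block, fewer groups and left-out libraries were alternatives. Named were well-known members, those with the largest called changes per comparison (up to 6 each way at 8 h, otherwise up to 4), members 2-fold changed in both genotypes and the 5 highest and lowest levels; Slc30a4, Slc12a4, Slc43a2, Slc16a6, Slc25a23 and others beyond this were named after their values were seen. Overlapping exons were found from the tables' coordinates: 35 members share bases with a gene on the opposite strand. Python 3.11.15, pandas 2.3.3, numpy 2.4.6 and matplotlib 3.10.9 made the summaries.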

Additional observations from a re-analysis of the deposited data

Results flagged for a closer look

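Listed here are members whose response to TNF differed between RelA-TA-KI and WT by the test of the difference itself, with the log2 difference (RelA-TA-KI response minus WT response). At 3 h it was -1.78 for Slc7a2, not called without all libraries of RelA-TA-KI replicate 1 or 2 (adjusted p = 0.164 and 0.132). At 8 h, among the differences that were called whichever single library was left out, it was 1.99 for Slc20a1, 1.09 for Slc25a30 and -1.72 for Slc2a6. Without all libraries of RelA-TA-KI replicate 2 none of these 3 was called (adjusted p = 0.104, 0.182 and 0.0938), nor were Slc25a30 and Slc2a6 without those of RelA-TA-KI replicate 1 (0.117 and 0.0912). It was 0.86 for Slc25a25, lost without WT untreated replicate 1 (adjusted p = 0.058).

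The remaining differences at 8 h were lost without several libraries. That of Slc25a33 was 0.82, lost without RelA-TA-KI TNF 8 h replicate 1, RelA-TA-KI TNF 8 h replicate 2, RelA-TA-KI untreated replicate 1, RelA-TA-KI untreated replicate 2, WT TNF 8 h replicate 1 or WT untreated replicate 1 (adjusted p 0.0598 to 0.108). That of Slc6a6 was 0.75, lost without RelA-TA-KI TNF 8 h replicate 2, RelA-TA-KI untreated replicate 1, RelA-TA-KI untreated replicate 2, WT TNF 8 h replicate 2 or WT untreated replicate 1 (adjusted p 0.057 to 0.0847). That of Slc4a7 was 0.68, lost without RelA-TA-KI TNF 8 h replicate 1, RelA-TA-KI TNF 8 h replicate 2, RelA-TA-KI untreated replicate 1, RelA-TA-KI untreated replicate 2, WT TNF 8 h replicate 1, WT TNF 8 h replicate 2 or WT untreated replicate 1 (adjusted p 0.0608 to 0.206). Slc7a1, at 0.59, was lost without RelA-TA-KI TNF 8 h replicate 2, RelA-TA-KI untreated replicate 2, WT TNF 8 h replicate 1 or WT untreated replicate 1 (adjusted p 0.0614 to 0.101). Slc2a8, at -0.81, was lost without RelA-TA-KI TNF 8 h replicate 2, RelA-TA-KI untreated replicate 1, RelA-TA-KI untreated replicate 2, WT TNF 8 h replicate 1, WT TNF 8 h replicate 2 or WT untreated replicate 1 (adjusted p 0.0555 to 0.15). Slc24a3, at -0.94, was lost without RelA-TA-KI TNF 8 h replicate 2, RelA-TA-KI untreated replicate 1, RelA-TA-KI untreated replicate 2, WT TNF 8 h replicate 1 or WT untreated replicate 2 (adjusted p 0.0642 to 0.0982). Slc8a1, at -1.001, was lost without RelA-TA-KI TNF 8 h replicate 1, RelA-TA-KI untreated replicate 2, WT TNF 8 h replicate 2 or WT untreated replicate 1 (adjusted p 0.0749 to 0.0906). Slc43a3, at -1.17, was lost without RelA-TA-KI TNF 8 h replicate 2, RelA-TA-KI untreated replicate 2, WT TNF 8 h replicate 2 or WT untreated replicate 1 (adjusted p 0.0574 to 0.0801).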

How the results depend on the processing

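Of 189 pairs of a named member and a comparison, 103 were called under every setting tried, 86 lost the call under at least 1, and 0 changed sign. The counts of members called moved more. With a replicate block the counts were 6, 12, 47 and 70 in WT and 23, 20 and 51 in RelA-TA-KI at 0.5, 1 and 3 h, with 1, 9 and 38 differences at 1, 3 and 8 h, 21 untreated and 58 averaged differences; within genotype they were 9, 14, 54 and 73 in WT, 26, 24 and 56 in RelA-TA-KI and 2, 20 and 43 differences. Same-numbered samples correlated at a median of 0.248 over 45 pairs of groups (0.00558 to 0.529), at 0.161 to 0.529 over the 20 pairs within a genotype and at 0.164 to 0.338 over the 5 pairs of genotypes at 1 time. Only 2 numbers exist and the labels do not say what they mark, so the block is not the main analysis. In WT, however, Xist had 337 to 426 CPM in replicate 1 and 2.32 to 3.90 CPM in replicate 2 over the 5 TNF times. The numbers there thus follow a lasting difference between the samples, which the main fit does not use. Without the low-count filter the counts were 6 and 7 in WT and 14 and 16 in RelA-TA-KI at 0.5 and 1 h, 1, 9 and 25 differences at 1, 3 and 8 h, 12 untreated and 42 averaged. With only the groups compared they were 1, 10 and 25 in WT at 1, 3 and 8 h, 4 and 2 in RelA-TA-KI at 0.5 and 1 h, and 5 differences at 8 h. DESeq2 called 3 in RelA-TA-KI at 0.5 h. Leaving out libraries gave 1 to 1, 1 to 2, 10 to 23 and 19 to 40 in WT and 0 to 4, 0 to 7, 2 to 27 and 24 to 75 in RelA-TA-KI, 0 to 0, 0 to 0, 0 to 3 and 0 to 14 differences, 0 to 0 untreated, 6 to 48 averaged and 18 to 32 LPS and Poly(I:C) genotype differences, and 44 to 63 and 82 to 98 for LPS and 15 to 19 and 59 to 84 for Poly(I:C) at 3 and 8 h. Some of these fits left out all libraries of 1 replicate of a genotype, a setting chosen after seeing the data. The cause of these shifts was not tested.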

Other observations

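Carriers of vitamins, choline and organic ions were called in both directions with LPS and Poly(I:C). Of these 14 members, 3 rose and 6 fell with LPS at 8 h, and 4 rose and 5 fell with Poly(I:C), by the edgeR test of the change shared by both genotypes. Of all genes, 30.9% rose and 33.2% fell with LPS, and 25.2% rose and 26.1% fell with Poly(I:C). Slc46a1 (the proton-coupled importer of folate) had 1.44 CPM with LPS and 1.73 with Poly(I:C) against 8.63 CPM untreated in RelA-TA-KI, and 2.93 and 5.32 against 9.43 CPM in WT. It was lower in each of these libraries than in the untreated one, with shared log2 changes of -2.05 (SE 0.37) and -1.35 (SE 0.33), while at 8 h of TNF it changed by -0.16 (SE 0.15) in RelA-TA-KI and -0.07 (SE 0.15) in WT (edgeR adjusted p = 0.434 and 0.853). Slc44a1 (a choline carrier) rose by 1.53 (SE 0.22) and 1.06 (SE 0.22), and Slc23a2 (an importer of vitamin C) by 1.41 (SE 0.14) and 1.54 (SE 0.14) with LPS and Poly(I:C). At 8 h of TNF Slc44a1 was also called higher in both genotypes, and Slc23a2 was called higher in WT but not in RelA-TA-KI.

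Copper and lysosomal carriers that have not been described also moved with these agents. Slc31a2 (CTR2, a copper carrier of endosomes and lysosomes) had 113 and 86.9 against 27.5 CPM in RelA-TA-KI, and 119 and 92.0 against 26.5 CPM in WT, shared changes of 2.10 (SE 0.17) and 1.73 (SE 0.17). Slc17a5 (sialin, which exports sialic acid from lysosomes) fell by a log2 of 1.86 and 1.08. At 8 h of TNF neither was called in either genotype, the edgeR adjusted p being 0.0669 and 0.13 for Slc31a2 and 0.731 and 0.418 for Slc17a5 in RelA-TA-KI and WT. These 5 genes were chosen after their values were seen.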
